A study of Mus musculus with 5 samples.

Results

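Emp1 encodes epithelial membrane protein 1, a small membrane-spanning glycoprotein of the family that also holds PMP22. The 140 kb window that holds it in the mouse build mm9, chromosome 6 from 135.22 to 135.36 Mb, carried 39 of the 83829 peaks listed by ChIP-seq for the coactivator p300 and the transcription factor c-Jun. A peak was a member when its centre lay in the window. The members were 10 p300 peaks with pioglitazone against 16 without it, and 7 c-Jun peaks with pioglitazone against 6 without it. The window was chosen because the number of listed p300 peaks fell there, so every p300 difference between treatments below is a description that supports nothing further.

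The cells were MS5, an established bone marrow stromal line of the mouse, at passage 11, and each of the 4 ChIP libraries was a single sample. One pair of libraries, 1 per antibody, came from cells given TGF-β1 (10 ng/mL) together with pioglitazone (20 ng/mL) for 5 h, and the other pair from cells given TGF-β1 alone for the same time. All 4 libraries therefore come from TGF-β1-treated cells, and no library from cells without this cytokine was used here. The lists held 21994 p300 peaks with pioglitazone and 31466 without it, and 13325 c-Jun peaks with pioglitazone and 17044 without it. Sequencing depth is unknown. With 1 library per group no difference has a replicate check, and no p-value is given.

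p300 is a histone acetyltransferase that transcription factors recruit to enhancers and promoters in use. AP-1, of which c-Jun is a part, is a dimeric factor of the Jun and Fos families that responds to growth factors, cytokines and stress. TGF-β1 drives stromal cells towards matrix production, and pioglitazone is an agonist of the nuclear receptor PPARγ, the master regulator of fat cell differentiation. Enhancers of one gene often lie in clusters spread over many kilobases, and p300 occupancy is a common means of finding them.

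The RefSeq table gives 2 starts for Emp1 on the plus strand. The 250 bases before the first start are shown because they match TGANTCA, the AP-1 pattern searched for here. N stands for any base, and the pattern reads the same on both strands. They lie at chr6:135362681-135362930 of the build GRCm38.p6, which is not the build of the peak lists, so these positions cannot be set beside those of the peaks. Capitals mark the motif.

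Emp1 first promoter: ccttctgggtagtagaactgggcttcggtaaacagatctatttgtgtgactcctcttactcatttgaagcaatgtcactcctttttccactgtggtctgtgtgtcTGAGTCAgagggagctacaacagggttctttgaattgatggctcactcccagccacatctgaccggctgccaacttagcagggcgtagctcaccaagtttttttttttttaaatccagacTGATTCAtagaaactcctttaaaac

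The motif occurs 2 times in this sequence, as TGAGTCA from 145 to 139 bases before the start and as TGATTCA from 25 to 19 bases before it. Among the same 250 bases of 32851 RefSeq promoters, 6.75% held at least 1 match and 0.338% held 2 or more. The second Emp1 promoter held 0 matches. A match is a description of the letters and not of binding. No mm9 annotation was used here, so no peak was placed at either promoter or assigned to Emp1. In the GRCm38.p6 gene table, Pbp2 is the next protein-coding gene before Emp1 and Grin2b, a subunit of the NMDA glutamate receptor, the next after it.

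Overlapping peaks of the 4 lists merged into 18 sites, numbered from 1 at the low end of the window to 18 at the high end. Of these, 3 were in all 4 lists, 4 were in both p300 lists only, and 5 were in the p300 list without pioglitazone only. A further 2 sites had p300 in both treatments and c-Jun with pioglitazone only. The last 4 sites were each of a kind of their own: p300 in both treatments with c-Jun without pioglitazone only, p300 without pioglitazone only with c-Jun in both, c-Jun with pioglitazone only, and c-Jun without it only.

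**Figure D1:**
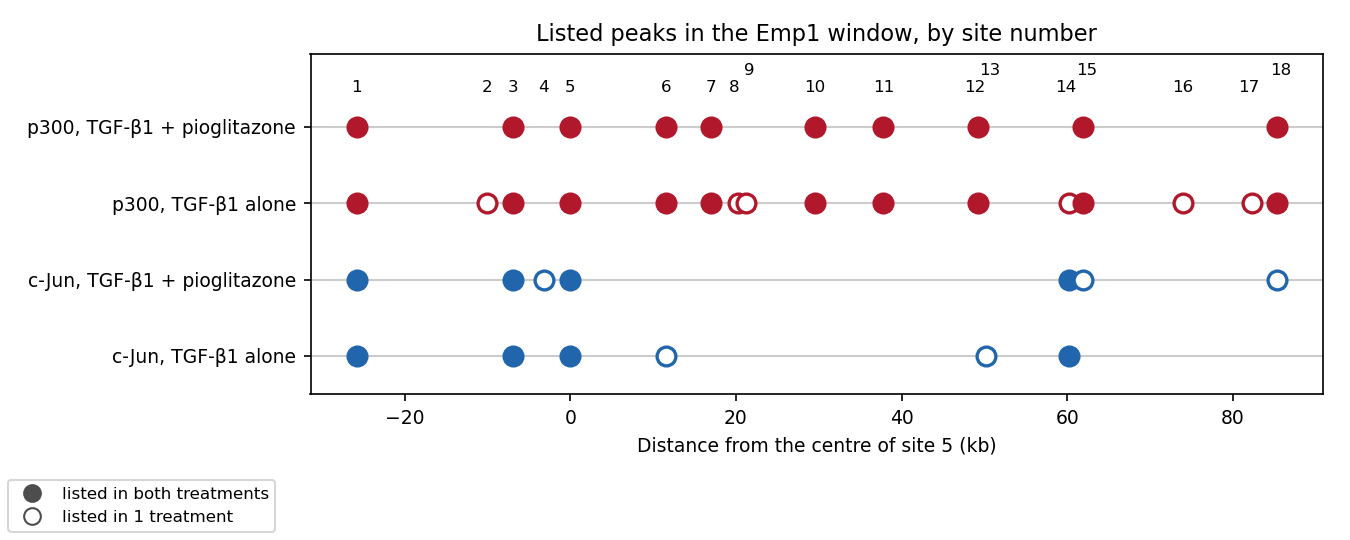
Listed peaks in the Emp1 window, plotted by distance in kb from the centre of the site 5 p300 peak without pioglitazone, with 1 row per library and site numbers above; filled circles are peaks whose antibody was listed at that site in both treatments and open circles those listed in 1. All 10 p300 peaks with pioglitazone are filled, 6 of the 16 without it are open, and 3 of the 7 c-Jun peaks with pioglitazone and 2 of the 6 without it are open.

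The score column holds 1 for every peak, so the lists give no peak height. Row position in the list is used in its place, as a row number and as a percentage of the list, in which a low value stands near the start. No source used here states what the rows were sorted by. Among the 16077 p300 peaks without pioglitazone that overlapped one with it, the rows of both lists were related with Spearman's rho of 0.81 across peaks, which are not independent replicates and come from the same libraries. For 7783 such c-Jun peaks rho was 0.74. Lists of different length give different percentages to the same row, so a shift between lists is not a measured change in binding.

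The sites with both factors in both treatments were 1, 3 and 5, all in the lower part of the window. Site 5 (135252456 to 135252788) held the p300 peak nearest the start of the list, at row 103 with pioglitazone, which is 0.468% of the list, and at row 101 without it, 0.321%. Its c-Jun peak was at row 4191 with pioglitazone (31.5%) and at row 3815 without it (22.4%). The site with the highest-placed p300 peak of the window was thus not the one with the highest-placed c-Jun peak.

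That was site 3 (135245583 to 135245883), where c-Jun stood at row 561 with pioglitazone (4.21%) and at row 1378 without it (8.08%). p300 at site 3 was at row 921 with pioglitazone (4.19%) and at row 930 without it (2.96%). Both factors were therefore within the first 10% of their lists at this site in both treatments, which held for no other site of the window. Site 1 (135226695 to 135227006), the lowest of the window, stood farther down both lists with pioglitazone than any other window site. Its p300 peak was at row 14691 with pioglitazone (66.8%) and at row 14731 without it (46.8%), and its c-Jun peak at row 12587 with pioglitazone (94.5%) and at row 7342 without it (43.1%).

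At 4 sites in the middle of the window p300 was listed in both treatments and c-Jun in neither. Site 7 (135269523 to 135269769) was at p300 row 1871 with pioglitazone (8.51%) and 5356 without it (17.0%), with the peak centres at the same base. For site 10 (135281960 to 135282206) the p300 rows were 3234 with pioglitazone (14.7%) and 4350 without it (13.8%). Sites 7 and 10 stood within the first 20% of both lists.

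Site 11 (135290318 to 135290606) had p300 at row 5220 with pioglitazone (23.7%) and at row 9791 without it (31.1%). In contrast, p300 at site 12 (135301668 to 135301966) was at row 12419 with pioglitazone (56.5%) and at row 5059 without it (16.1%). Site 12 had the widest gap in p300 row percentage between the lists of all 10 shared sites, 40.4 points.

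Site 6 (135264060 to 135264351) also kept p300 but was listed for c-Jun without pioglitazone only. Here p300 was at row 9912 with pioglitazone (45.1%) and at row 5802 without it (18.4%), and the c-Jun peak was at row 11574 of its list (67.9%). The nearest c-Jun peak with pioglitazone was centred 11537 bp away. In all, the centres of the 10 shared p300 peaks lay between 0 and 83 bp apart, with a median of 43.5 bp against 38 bp for shared p300 peaks of the whole lists.

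**Figure D2:**
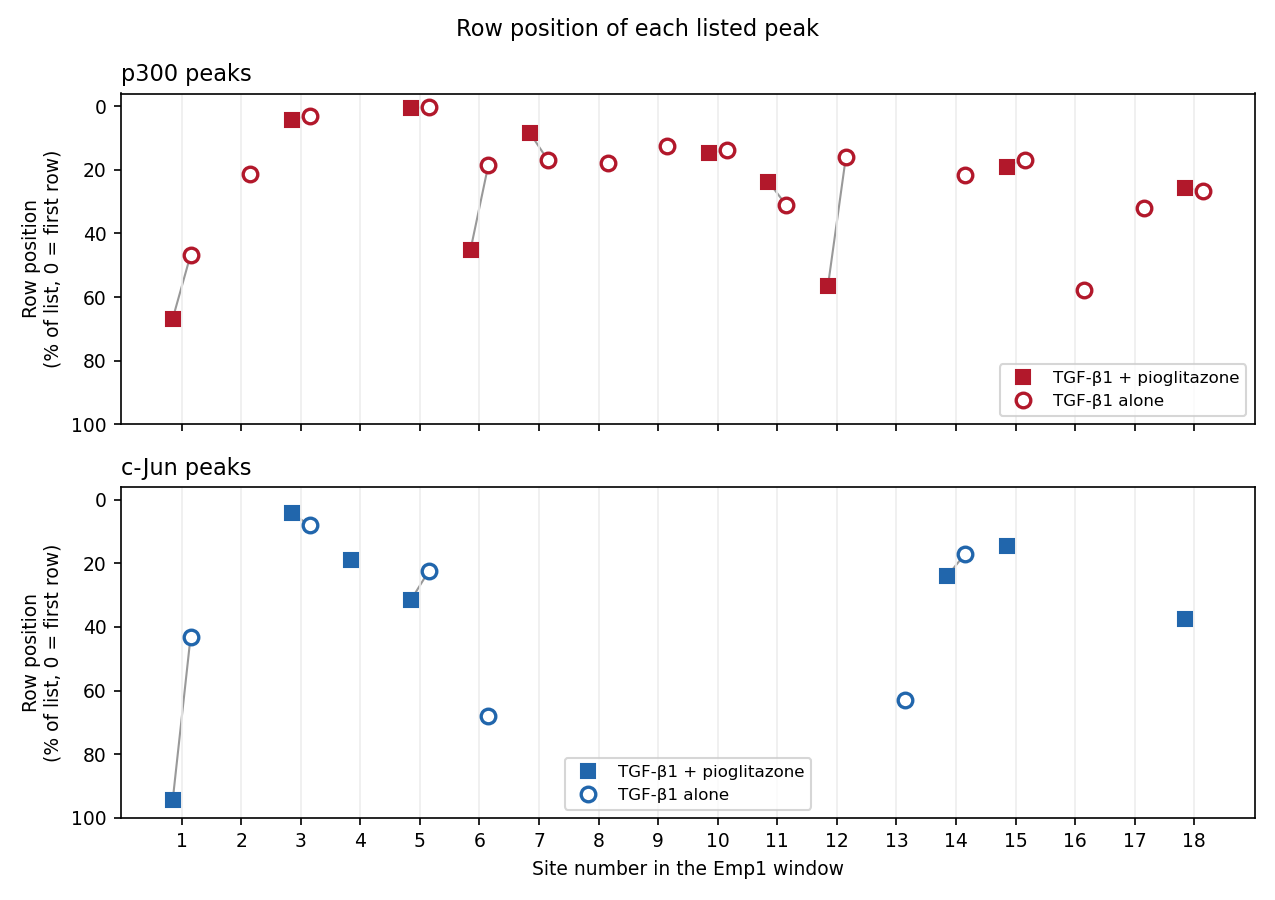
Row position of each listed peak as a percentage of its list (0 is the first row, at the top), by site number, for p300 above and c-Jun below; filled squares are TGF-β1 with pioglitazone, open circles TGF-β1 alone, and grey lines join peaks of the same site. p300 squares are missing at sites 2, 8, 9, 14, 16 and 17, and c-Jun has squares but no circles at sites 4, 15 and 18.

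The 6 p300 peaks listed without pioglitazone only were at sites 2, 8, 9, 14, 16 and 17. They made up 37.5% of the 16 p300 peaks without pioglitazone, and 48.9% of the whole p300 list without pioglitazone was lost in the same sense. None of the 10 p300 peaks with pioglitazone was gained, against 26.9% over the whole list. Those whole-list shares cover all rows. Of the 16 window peaks, 15 stood in the first 50% of the list, where a smaller share was lost. Summed over the 10% steps of rows in which the window's peaks stood, the whole-list shares came to 3.51 lost and 1.26 gained peaks. No reading is drawn from these shares and numbers, and no interval is given, because the window was picked on this contrast.

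Sites 8 (135272705 to 135272951) and 9 (135273739 to 135273985) were a close pair, with the shortest gap between neighbouring p300 peaks in the window, 1.03 kb. Site 9 was at row 3931 of the 31466 without pioglitazone and site 8 at row 5636 (17.9%). In this 10% step of the whole list 12.4% of p300 peaks were lost. The nearest p300 peaks with pioglitazone were centred 4216 bp from site 9 and 3182 bp from site 8, and neither site had c-Jun in either treatment.

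Site 2 (135242443 to 135242689) was at row 6724 without pioglitazone (21.4%), in a 10% step of the list where 26.4% were lost. Sites 17 (135334827 to 135335073) and 16 (135326361 to 135326607) were at rows 10104 (32.1%) and 18224 (57.9%), in steps where 37.0% and 56.0% were lost. No c-Jun peak was listed at sites 2, 16 and 17, so 5 of the 6 lost p300 peaks of the window stood without c-Jun. Most lost p300 peaks of the whole list, 12324 of 15389, likewise overlapped no c-Jun peak without pioglitazone, so the window count is not particular to this locus. Of the 11 window p300 peaks without c-Jun in that treatment 5 were lost, where the whole list lost 62.8% of such peaks, and of the 5 with c-Jun 1 was lost, where the whole list lost 25.9%.

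The remaining lost p300 peak, at site 14 (135312641 to 135312943), had c-Jun in both treatments. p300 was at row 6808 without pioglitazone (21.6%), and its nearest peak with pioglitazone was centred 1832 bp away, at site 15. c-Jun at site 14 was at row 3198 with pioglitazone (24.0%) and at row 2912 without it (17.1%), and the c-Jun and p300 centres without pioglitazone were 37 bp apart. Of the 11828 p300 peaks of the whole list that overlapped c-Jun without pioglitazone, 9.44% lost p300 while c-Jun was retained, so the combination seen at site 14 also occurs elsewhere.

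The lost p300 peaks stood between rows 3931 and 18224, with a median row percentage of 21.5, against a median of 16.9 for the 10 window peaks in both lists. Over the whole p300 list without pioglitazone, the median row percentage of lost peaks was 69.5 and that of peaks in both lists 29.7. These positions belong to peaks picked through this contrast, and nothing is read from them.

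**Figure D3:**
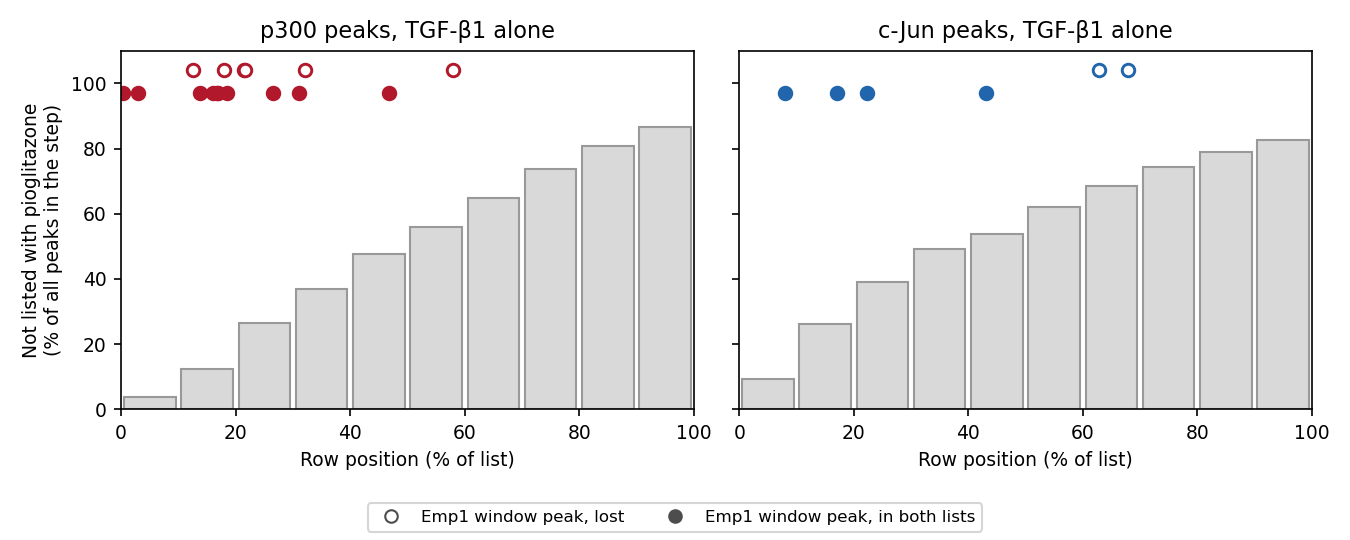
Share of all peaks listed without pioglitazone that were not listed with it, in percent, by 10% step of the list (grey bars), for p300 on the left and c-Jun on the right; circles above the bars mark the row position of each Emp1 window peak, open for lost and filled for listed in both treatments. The open p300 circles reach up to 57.9% of the list, and the open c-Jun circles at 62.9% and 67.9%.

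c-Jun, which played no part in choosing the window, numbered 7 peaks with pioglitazone and 6 without it, and 4 of them were shared, at sites 1, 3, 5 and 14. Lost c-Jun peaks were 2 of 6 (33.3%, exact 95% interval 4.33 to 77.7), and 54.3% of the whole c-Jun list without pioglitazone was lost. Gained c-Jun peaks were 3 of 7 (42.9%, interval 9.90 to 81.6), and 41.6% of the whole list with pioglitazone was gained. Both intervals are too wide to set the window apart from most shares, and they treat peaks of one locus as independent, which they are not. No agreement with the whole list is read from them. Summed over the 10% steps of the window's c-Jun peaks, the whole-list shares came to 2.65 lost and 1.99 gained. The sign of the difference in number depended on where the window ended, since 20 kb more on either side gave 9 c-Jun peaks with pioglitazone and 10 without it.

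The gained c-Jun peaks were at sites 4, 15 and 18. Site 15 (135314351 to 135314709) had its c-Jun peak at row 1951 with pioglitazone (14.6%), the second-highest c-Jun place in that list within the window. p300 was listed at site 15 in both treatments, at row 4188 with pioglitazone (19.0%) and at row 5278 without it (16.8%). With pioglitazone the c-Jun and p300 centres of site 15 were 128 bp apart and the peaks overlapped by 103 bp. Site 15 lies next to site 14, and the nearest c-Jun peak without pioglitazone was centred 1667 bp away, at that site. With pioglitazone, c-Jun was thus listed at both neighbours and p300 at site 15 only, and without it c-Jun was listed at site 14 only and p300 at both.

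Site 18 (135337764 to 135338083), the highest of the window, had c-Jun at row 5010 with pioglitazone (37.6%). Its p300 peak was at row 5638 with pioglitazone (25.6%) and at row 8361 without it (26.6%). The nearest c-Jun peak without pioglitazone was centred 25082 bp away. Of the 6 window sites with p300 in both treatments and no c-Jun without pioglitazone, c-Jun was listed with pioglitazone at 2, sites 15 and 18, and over the whole lists at 17.0% of 7314 such peaks.

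Site 4 (135249303 to 135249537), between sites 3 and 5, held a c-Jun peak alone, at row 2507 with pioglitazone (18.8%), with the nearest p300 peak of that treatment centred 3212 bp away. The lost c-Jun peaks were at site 6 and at site 13 (135302711 to 135302959), which was at row 10724 without pioglitazone (62.9%) and 1044 bp from the p300 peak of site 12. Both lost c-Jun peaks stood in a 10% step of the list where 68.4% of c-Jun peaks were lost. The gained ones stood between 14.6% and 37.6% of the list with pioglitazone, sites 4 and 15 in a step where 15.3% of c-Jun peaks were gained and site 18 in one where 34.7% were.

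Overlap of the factors was similar in number in both treatments. c-Jun peaks overlapped p300 at 5 of 7 with pioglitazone (71.4%, exact 95% interval 29.0 to 96.3) and at 5 of 6 without it (83.3%, interval 35.9 to 99.6). When overlap of 50% of both peaks, or centres within 100 bp, was required, the number with pioglitazone was 4. The number without it stayed at 5 under both rules. Over the whole lists 55.5% of c-Jun peaks overlapped p300 with pioglitazone and 69.4% without it. Seen from p300, 5 of 10 peaks overlapped c-Jun with pioglitazone (50%, interval 18.7 to 81.3) and 5 of 16 without it (31.2%, interval 11.0 to 58.7), where the whole lists gave 33.7% and 37.6% in the same order. These intervals treat peaks of one locus as independent, which they are not, so no agreement with the whole-list shares is read from them. The p300 peaks counted here are also those whose fall chose the window. At the 5 window sites where p300 and c-Jun overlapped in the list without pioglitazone, 3 retained the pair, 1 retained p300 alone, 1 c-Jun alone and 0 lost the pair. Over the whole lists the shares of these outcomes were 46.9%, 27.2%, 9.44% and 16.5%.

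With fewer p300 peaks listed, the spacing between them was wider with pioglitazone. The gap between neighbouring p300 centres was 11.6 kb at the median and 23.4 kb at most with pioglitazone, and 8.22 kb at the median and 15.7 kb at most without it. The longest gap with pioglitazone ran between sites 15 and 18, across the lost sites 16 and 17. Outside the window the nearest p300 peaks below it were 3.66 kb from the edge with pioglitazone and 7.21 kb without it. Above it they were 1053 kb away with pioglitazone and 38.0 kb away without it, and the nearest c-Jun peaks above it were 1121 kb away with pioglitazone and 1064 kb without it. The first p300 peaks inside the lower edge were 6.81 kb from it with pioglitazone and 6.86 kb without it, and the last were 22.0 kb and 22.1 kb from the upper edge in the same order.

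When peak centres of all 4 lists no more than 0.0125 Mb apart were joined, sites 2 to 18 formed a single domain of 95.6 kb (135242443 to 135338083), and site 1 fell outside it. This domain held 9 p300 peaks with pioglitazone against 15 without it, and 6 c-Jun peaks against 5. Of the 25240 domains of the genome, 0 held more p300 peaks without pioglitazone, and 3 held more with it. A fall of 6 listed p300 peaks was the largest of any domain and was shared by 6 domains, and a fall of 5 was seen in 8. The other domains with a fall of 6 held fewer p300 peaks in both lists. There were 5 with pioglitazone and 11 without it on chromosome 17, and 2 and 8 on chromosomes 4 and 9. On chromosome 3 there were 1 and 7, and on chromosome 13 there were 0 and 6. The p300 fall chose the window, so its rank is a description only. Among the 2219 domains with 5 or more p300 peaks over both lists, 61.0% had fewer with pioglitazone.

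Of the other 5 domains with a fall of 6, none listed more c-Jun peaks with pioglitazone. On chromosome 17 (29565182 to 29635157) there were 6 c-Jun peaks with pioglitazone and 9 without it, and on chromosome 4 (144570899 to 144607926) 0 and 3. On chromosomes 3 (136496886 to 136535992) and 13 (15937656 to 15971628) there were 0 with pioglitazone and 1 without it, and on chromosome 9 (87978129 to 88013912) 3 in both. Over the 64 domains in which p300 fell by 4 or more, c-Jun peaks were more numerous with pioglitazone in 15, as many in 20 and fewer in 29. More c-Jun peaks with pioglitazone were listed in 24.7% of the 675 domains with 5 or more c-Jun peaks over both lists. That share cannot be set directly beside the 64 domains, which were taken with no minimum number of c-Jun peaks.

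**Figure D4:**
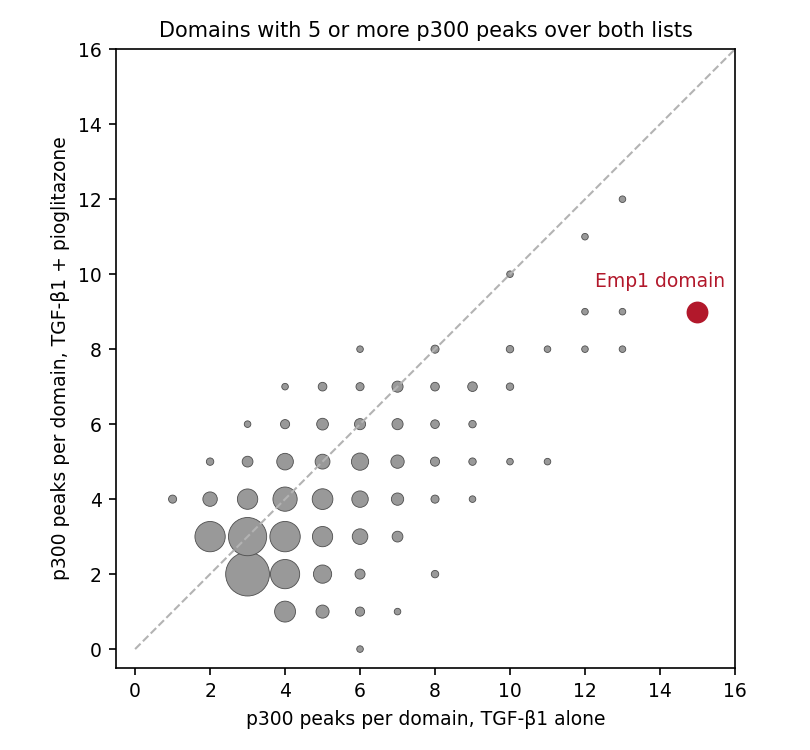
Number of p300 peaks per domain with pioglitazone (vertical axis) against the number without it (horizontal axis), for the 2219 domains with 5 or more p300 peaks over both lists; larger grey circles stand for more domains, the dashed line marks equal numbers, and the Emp1 domain is in red. The Emp1 domain, at 9 with and 15 without pioglitazone, lies farthest to the right.

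Likeness to the Emp1 domain was measured as the sum of absolute differences over its 4 peak counts. The domain most like it lay on chromosome 8 (11323114 to 11419581), with a sum of 5, and held 8 p300 peaks with pioglitazone and 13 without it, and for c-Jun 6 with and 3 without. The next was on chromosome 5 (66904685 to 66995297), with a sum of 6, and held 8 p300 peaks with pioglitazone and 12 without it, and for c-Jun 6 with and 7 without. Sums of 7 were found on chromosome 10 (120013917 to 120103012) and chromosome 14 (26287186 to 26353691), and a sum of 8 on chromosome 14 (21680864 to 21758081). All 5 listed fewer p300 peaks with pioglitazone, by 2 to 5, and 1 of them listed more c-Jun peaks. They were picked for counts near those of the Emp1 domain, so a p300 fall is built into the choice and nothing is read from it. Among the 15 domains with 10 or more p300 peaks without pioglitazone, the Emp1 domain included, the number with pioglitazone was between 45.5% and 100% of that without it, with a median of 70%, and the Emp1 domain was at 60%.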

How the data were processed

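The authors deposited 1 peak list per ChIP library; no file of the pooled input was used here. The submitters' processing notes name HOMER, Bowtie2 2.3.4.3 and SAMtools 1.9, with build mm9. HOMER's version, caller settings, duplicate handling and use of the input: not given in the sources used here. The deposited score is 1 for every peak. Peaks of a list share 1 width: 227 bp (p300 with pioglitazone), 247 bp (p300 without), 235 bp (c-Jun with) and 249 bp (c-Jun without). Libraries of unequal depth would give lists of unequal length.

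Peaks centred in the window were taken. Overlap meant at least 1 bp. A peak is lost or gained when its antibody has no overlapping peak in the other treatment. Overlaps (Python 3.11.15; scipy 1.17.1, pandas 2.3.3, numpy 2.4.6) were tested on simulated data, and checked against bedtools 2.31.1, with equal numbers in 24 of 24 comparisons. Intervals are exact (Clopper-Pearson). Alternatives were other overlap rules, list lengths and regions. Every window peak is named, with the 5 domains most like the Emp1 domain and those with the same fall. The window, lists and rules were chosen with earlier results of these data known. No mm9 genome or annotation was used here, so peak sequences, cell markers and the planned Emp1 family comparison (Emp2, Emp3 and Pmp22) were not analysed.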

Additional observations from a re-analysis of the deposited data

Results flagged for a closer look

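In the Emp1 window p300 and c-Jun differed in the sign of the change in listed peaks. The difference with minus without pioglitazone was -6 for p300, which chose the window, and 1 for c-Jun. The number of p300 peaks with pioglitazone was 62.5% of that without it in the window and 69.9% over the whole lists. For c-Jun these shares were 117% and 78.2%. The difference between the antibodies was not tested, since each group is 1 library. The c-Jun difference turned to -1 in a window 20 kb wider on either side.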

How the results depend on the processing

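The p300 counts, with 6 lost and 10 in both lists, stayed within 1.5 times of these values under all 7 alternatives (overlap of 50% of both peaks, centres within 100 or 500 bp, equal list lengths, first 50% of rows, joined domain, wider window). In the window widened by 20 kb on either side, the c-Jun difference was -1, c-Jun lost 4 peaks, 8 c-Jun peaks overlapped p300 without pioglitazone, and 1 p300 peak was gained. That alternative adds peaks below the window. Equal list lengths removed no window peak, since all stood above the shortened end, and so could change no count. With all lists shortened to their first 50%, the c-Jun difference was 2 and 1 c-Jun peak was lost, since fewer rows enter. Of 64 values under these alternatives, 58 kept their direction within 1.5 times. That number includes the values with equal list lengths, which could not change. The overlap rules also left lost, gained and retained counts as they were. Shared centres of an antibody lay at most 91 bp apart, and the others at least 1667 bp from the nearest one. The number is therefore not a measure of stability. No paired analysis was possible because each antibody and treatment has 1 library. Peak height and depth are unknown, so how far lost and retained peaks differ in signal was not measured.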
